A study of Mus musculus with 4 samples.

Results

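The common gamma-chain cytokines and their receptors were followed in mouse T cells cultured with a BET bromodomain inhibitor. The set was given as 10 named genes, the cytokines Il2, Il4, Il9 and Il21 and the receptor genes Il7r, Il2ra, Il2rg, Il4ra, Il21r and Il9r. A gene was kept when the array had a row annotated to that gene alone, which left 9 of the 10 genes among 14860 named genes, 4 cytokines and 5 receptor chains. Il2rg, the gene of the shared gamma chain, had no such row here and was not analysed here. Each of the 9 genes had a single row, so no choice between rows was needed.

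The JQ1 group held 2 samples of naive CD4 T cells from spleens of C57BL/6 mice, kept for 48 hours with 150 nM JQ1, a small molecule that competes with acetylated lysine for the bromodomain pocket of BET proteins. The DMSO group held 2 samples of the same kind of cells, kept for 48 hours with this solvent alone. Both groups were stimulated with beads carrying antibodies to CD3 and CD28 and received 5 ng/ml TGF-β1, 20 ng/ml IL-6, 20 ng/ml IL-23 and 10 µg/ml each of antibodies against IFN-γ and IL-4, the mixture used to obtain TH17 cells, a helper T cell type named for its product IL-17. The labels give a purity above 90% for the naive cells and do not say whether replicates came from separate mice or cultures. The p-values below thus cover only how far these 4 samples scatter, and that scatter can be technical. The treatment text also mentions 4 days of stimulation, whereas the titles and the time label give 48 hours, which was taken here. Total RNA was read on Affymetrix exon arrays, and each value is a log2 signal, so that a difference of 1 is a doubling.

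IL-2, IL-4, IL-7, IL-9, IL-15 and IL-21 all signal through receptors that contain the gamma chain, paired with other chains that set which ligand is bound. The kinase JAK1 sits on the ligand-specific chain and JAK3 on the gamma chain, and the STAT proteins they phosphorylate differ by cytokine, mainly STAT5 for IL-2, IL-7, IL-9 and IL-15, STAT6 for IL-4 and STAT3 for IL-21. In T cells these cytokines govern survival, division and the choice of helper lineage. IL-2 restrains TH17 differentiation through STAT5, and IL-21 is made by TH17 cells and acts back on them.

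The signals of Il2, Il9 and Il21 were lower with JQ1 at an unadjusted p below 0.05, that of the fourth cytokine gene, Il4, was not, and of the 5 receptor chains Il7r was lower and Il21r higher. Il2 was 3.19-fold and Il9 2.91-fold lower. Il7r was 3.19-fold lower, with a JQ1 mean of 5.68 that lay under a background reference of 5.80 (described with Il7r). Cytokine and receptor genes were not tested against each other. No member passed the moderated test of limma once p-values were adjusted over all 14860 genes by the Benjamini-Hochberg method. The adjusted p of the members lay between 0.137 and 0.726, and 0.00673% of all genes, a single gene, were called. At an unadjusted limma p below 0.05, 4 members were lower (Il2, Il9, Il21 and Il7r), against 8.26% of all genes, and 1 was higher (Il21r), against 1.72% of all genes. Changes of 2-fold or more were found in 3 members, all lower, against 1.02% of all genes lower and 0.283% higher by that margin. With 2 arrays a group, an exact permutation test of a single gene cannot go below p = 0.333.

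On no member did the 2 groups overlap. Both JQ1 arrays lay below both DMSO arrays for 8 of the 9 genes, against 31.4% of all genes, and above them for Il21r, against 10.0% of all genes. Both shares are large, so a lack of overlap says little about a single gene. The median change of the 9 members was -0.57, beside -0.09 for all genes, and it was -1.12 for the 4 cytokines and -0.22 for the 5 receptor chains. When only the 7430 genes above the median brightness were tested, Il9 (limma adjusted p = 0.0141) and Il2 (limma adjusted p = 0.0295) passed, where 0.673% of these genes were called. Il7r had a limma adjusted p of 0.0467 there, but it entered that set only through its DMSO arrays, since its JQ1 mean lay under the median brightness of 6.02, so nothing rests on that call.

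**Figure D1:**
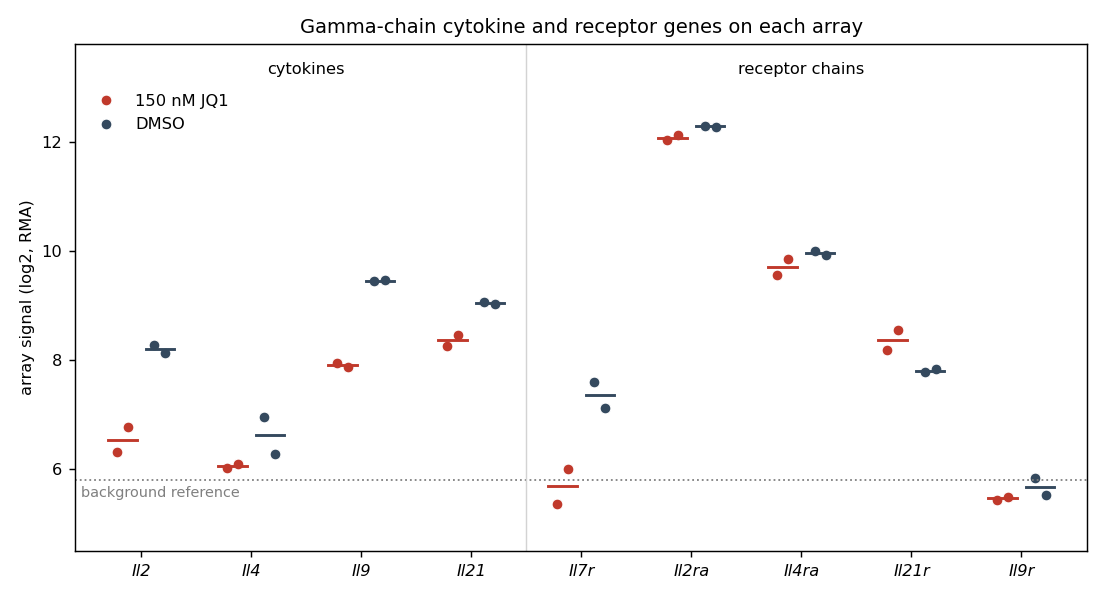
Log2 array signal of the 9 genes (vertical axis) with 150 nM JQ1 (left, red) and DMSO (right, dark) in each pair; points are the 2 arrays of a group and lines their mean. The dotted line is a background reference, 5.80, under which 95% of odorant and pheromone receptor genes lay, and heights of different genes are not comparable because their probes differ. The JQ1 points lie below the DMSO points for every gene except Il21r.

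Il2 encodes the growth factor that activated T cells release and take up again. Its signal was 6.31 and 6.76 on the JQ1 arrays, against 8.28 and 8.14 on the DMSO arrays. The JQ1 arrays were both low, with 1.37 log2 units between the nearest arrays of the groups. The mean was 6.54 ± 0.32 with JQ1 and 8.21 ± 0.10 with DMSO (SD, n = 2 each), a log2 change of -1.67 (SE 0.20, 95% interval -2.18 to -1.17, limma adjusted p = 0.194). Of all genes, 0.128% had a lower change.

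Il9 encodes a cytokine of TH9 cells that some TH17 cells also make and that acts on mast cells and epithelium. It had the tightest replicates of the lower genes, with 7.95 and 7.87 on the JQ1 arrays, against 9.45 and 9.46 on the DMSO arrays. The groups stood 1.49 log2 units apart at their nearest arrays, much more than the 0.086 between the JQ1 arrays or the 0.015 between the DMSO arrays. The log2 change was -1.54 (SE 0.14, 95% interval -1.90 to -1.19, limma adjusted p = 0.137), the smallest p among the members, and it passed over the 11145 genes above the 25th percentile of brightness as well (limma adjusted p = 0.0388), where 0.0808% of genes were called.

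Il21 encodes a cytokine that T cells of the TH17 and follicular helper kinds release and that acts on B cells and on T cells. Its signal was 8.25 and 8.47 with JQ1, against 9.07 and 9.02 with DMSO. Both JQ1 arrays were lower, by a smaller margin than for Il2 and Il9. The log2 change was -0.69 (SE 0.15, 95% interval -1.07 to -0.30, limma adjusted p = 0.326), a signal 1.61-fold lower.

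Il4 encodes the cytokine that drives TH2 cells, whose protein was blocked by antibody in both groups. Its signal was 6.02 and 6.09 with JQ1, against 6.96 and 6.28 with DMSO, and the JQ1 values lay just above the background reference of 5.80. The DMSO arrays differed by 0.68 from each other, while the nearest arrays of the groups were only 0.19 apart. The log2 change was -0.57 with an interval from -1.19 to 0.06 (SE 0.25, limma adjusted p = 0.529), and without DMSO replicate 1 it was -0.22, whereas without DMSO replicate 2 it was -0.91.

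The sequences upstream of the 4 cytokine genes and of Il7r are shown because these 5 genes had the lowest changes among the members and because cytokine genes of activated T cells are textbook targets of NFAT and AP-1. They were taken from the RefSeq promoter table of mouse GRCm38.p6, in which all 9 members were found, and run 5′ to 3′ on the strand of the gene. Each ends just before the most upstream RefSeq start of its gene and holds 250 bases, or 185 for Il7r, whose window was shortened to leave out bases of another transcript. Capitals mark the NFAT core GGAAA and the AP-1 motif TGANTCA on either strand.
Il2: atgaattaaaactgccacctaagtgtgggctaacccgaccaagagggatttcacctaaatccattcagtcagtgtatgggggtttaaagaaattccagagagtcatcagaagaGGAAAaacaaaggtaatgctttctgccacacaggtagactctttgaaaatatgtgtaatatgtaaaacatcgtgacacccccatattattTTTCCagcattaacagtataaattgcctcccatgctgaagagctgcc
Il9: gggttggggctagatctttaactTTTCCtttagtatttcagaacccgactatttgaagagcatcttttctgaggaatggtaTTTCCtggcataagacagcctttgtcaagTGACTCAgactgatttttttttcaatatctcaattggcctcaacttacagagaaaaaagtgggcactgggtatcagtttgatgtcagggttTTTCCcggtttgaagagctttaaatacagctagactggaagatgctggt
Il21: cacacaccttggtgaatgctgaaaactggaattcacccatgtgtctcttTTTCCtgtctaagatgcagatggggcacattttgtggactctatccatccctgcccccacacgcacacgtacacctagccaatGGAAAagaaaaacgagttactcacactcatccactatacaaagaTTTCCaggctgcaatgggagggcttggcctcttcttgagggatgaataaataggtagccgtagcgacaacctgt
Il4: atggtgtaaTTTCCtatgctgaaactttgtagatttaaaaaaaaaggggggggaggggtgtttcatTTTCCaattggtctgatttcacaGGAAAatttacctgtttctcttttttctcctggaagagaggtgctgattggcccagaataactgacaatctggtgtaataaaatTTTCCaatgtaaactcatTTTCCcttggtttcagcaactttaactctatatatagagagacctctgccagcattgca
Il7r: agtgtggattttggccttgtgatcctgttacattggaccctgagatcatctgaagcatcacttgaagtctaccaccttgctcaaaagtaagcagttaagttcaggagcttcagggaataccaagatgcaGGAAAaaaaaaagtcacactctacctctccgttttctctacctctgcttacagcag
They lie at chr3:37125955-37126204 (Il2), chr13:56482258-56482507 (Il9), chr3:37232637-37232886 (Il21), chr11:53618666-53618915 (Il4) and chr15:9529942-9530126 (Il7r), all on the minus strand.

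The Il4 window held 5 matches to GGAAA, a number reached by 0.39% of the 32851 windows of this table at the same length. Il9 and Il21 held 3 matches each, reached by 6.39% of windows, and Il2 held 2, reached by 21.4%. Of all 250-base windows, 55.6% had at least 1 match, and of all 185-base windows 46.2%, where Il7r had 1. TGANTCA was found once, upstream of Il9, and 6.75% of all 250-base windows hold it. No match to one motif overlapped a match to the other. Among receptor genes with such a window, Il2ra and Il4ra had 1 GGAAA match each and no TGANTCA. The number of matches did not follow the order of the changes, since Il4 had the most matches and the smallest change of the 4 cytokines. These matches describe letters in a short window and are not evidence of binding.

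Among the receptor chains, Il7r stood apart. It encodes the alpha chain of the IL-7 receptor, which naive and memory T cells display for survival and which activated T cells take down. Its signal was 5.36 and 6.01 on the JQ1 arrays, against 7.60 and 7.12 on the DMSO arrays. Both JQ1 arrays were low and the replicates of both groups spread more than those of Il2, by 0.66 with JQ1 and 0.48 with DMSO. The log2 change was -1.68 (SE 0.28, 95% interval -2.39 to -0.96, limma adjusted p = 0.227). The background reference, set at 5.80, is the value below which 95% of 799 olfactory and vomeronasal receptor genes had their mean signal. Of the JQ1 arrays, 1 of 2 was under it for Il7r, against 0 of 2 DMSO arrays.

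Il2ra encodes the alpha chain (CD25) that gives the IL-2 receptor its high affinity and is itself a gene that IL-2 raises. Its signal was 12.03 and 12.12 with JQ1, against 12.29 and 12.28 with DMSO. Both JQ1 arrays were slightly lower, and the log2 change of -0.21 had an interval from -0.57 to 0.15 (SE 0.14, limma adjusted p = 0.684). A change as low or lower was held by 30.0% of all genes, and the difference between the changes of Il2 and Il2ra was not tested.

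Il4ra, the alpha chain shared by the IL-4 and IL-13 receptors, had a signal of 9.56 and 9.85 with JQ1, against 9.99 and 9.93 with DMSO. The JQ1 arrays differed from each other by 0.29, more than the 0.075 that separated the nearest arrays of the groups. The log2 change was -0.25 (SE 0.17, 95% interval -0.67 to 0.16, limma adjusted p = 0.675). A further quantile normalization took Il4ra to -0.08 and cyclic loess to -0.09, and it ranged from -0.40 to -0.11 with 1 array left out. Il9r, the alpha chain of the IL-9 receptor, had 5.44 and 5.49 with JQ1, against 5.84 and 5.52 with DMSO. Of these 4 arrays only DMSO replicate 1 exceeded the background reference, and the log2 change was -0.22 (SE 0.17, 95% interval -0.65 to 0.21, limma adjusted p = 0.726). Without DMSO replicate 1 the change of Il9r was -0.06, and without DMSO replicate 2 it was -0.38.

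Il21r encodes the chain that binds IL-21 and was the only member with a higher signal in JQ1-treated cells. The signal was 8.18 and 8.55 with JQ1, against 7.77 and 7.83 with DMSO. Both JQ1 arrays were higher, with 0.35 between the nearest arrays of the groups and 0.37 between the JQ1 arrays themselves. The log2 change was 0.57 (SE 0.18, 95% interval 0.12 to 1.01, limma adjusted p = 0.413), a signal 1.48-fold higher, and 1.54% of all genes had a higher change. With 1 array left out it ranged from 0.38 to 0.75, and only without JQ1 replicate 1 was its unadjusted limma p still below 0.05. Il21 and Il21r, ligand and receptor, thus had changes of opposite sign.

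**Figure D2:**
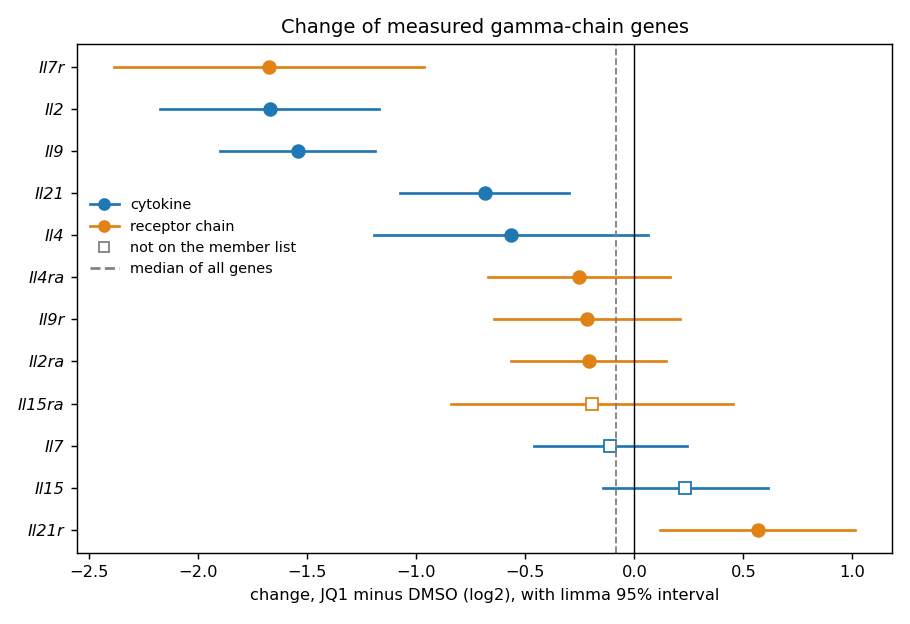
Log2 change, JQ1 minus DMSO (horizontal axis), of the 12 measured genes of the gamma-chain family, with limma's 95% interval as a line. Blue marks cytokines, orange receptor chains, open squares the 3 genes outside the member list, and the dashed line is the median of all genes, -0.09. The intervals of Il7r, Il2, Il9 and Il21 lie below 0 and that of Il21r above it.

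Of the rest of the family, Il7, Il15 and Il15ra were measured, and Il2rb was not analysed here. Il7 and Il15, cytokines made mostly by stromal and myeloid cells, were under the background reference in all 4 samples. Il7 was at -0.11 (SE 0.14), a sign that turned to 0.01 after centring each array on its median, and Il15 was at 0.23 (SE 0.15). Il15ra, the IL-15 receptor alpha chain, had a signal of 6.29 and 5.76 with JQ1, against 6.45 and 5.98 with DMSO, and its change of -0.19 (SE 0.26) was smaller than the spread of either group. Over the whole cytokine list of 6 measured genes, 0 passed over all genes and 3 were lower at an unadjusted limma p below 0.05, against 8.26% of all genes. Over the 6 measured receptor chains, 0 passed over all genes, while 1 was lower and 1 higher at that unadjusted p, against 8.26% and 1.72% of all genes.

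Genes encoding the signalling proteins below these receptors differed little. Of 7 measured JAK and STAT genes, 0 passed over all genes in limma and 0 had an unadjusted p below 0.05, with a median change of -0.07 beside -0.09 for all genes. The changes lay between -0.28 (Stat5b, SE 0.14) and 0.15 (Jak2, SE 0.14), and Stat6 was at -0.22 (SE 0.16). Tyk2 was at -0.10 (SE 0.14), a sign that turned to 0.01 after centring. Jak3, the kinase bound to the gamma chain, was not analysed here.

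Of 8 measured negative regulators of cytokine signalling, 0 passed over all genes in limma. At an unadjusted p below 0.05, 2 were higher, Cish and Socs2, against 1.72% of all genes, and 0 lower, against 8.26%. Cish, a STAT5-induced inhibitor of cytokine receptors, had 8.43 and 8.62 with JQ1, against 8.07 and 8.09 with DMSO (log2 change 0.44, SE 0.15, limma adjusted p = 0.438). Socs2, another STAT5-induced gene, had 10.80 and 10.98 with JQ1, against 10.44 and 10.52 with DMSO (log2 change 0.41, SE 0.15, limma adjusted p = 0.470). Both JQ1 arrays were above both DMSO arrays for each gene, and both stayed higher under the 3 other scalings. The phosphatase genes Ptpn6 at -0.28 (SE 0.15) and Ptpn2 at -0.23 (SE 0.15) had the next smallest p-values. The list's median change was 0.08.

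Genes known to be induced by IL-2 through STAT5 showed no common direction. Of 16 measured, 1 passed over all genes, as lower. This was Gzmb, the protease granzyme B of cytotoxic granules, with 4.05 and 4.05 on the JQ1 arrays, against 7.58 and 7.35 on the DMSO arrays (log2 change -3.42, SE 0.16, limma adjusted p = 0.0238), a fall to a JQ1 level under the background reference. The call was lost with any 1 array left out and with the replicate number as a block, while the change stayed between -3.53 and -3.30 with 1 array left out. At an unadjusted p below 0.05, 2 of the 16 were lower, against 8.26% of all genes, and 2 higher, against 1.72%. The lower pair was Gzmb and Tnfrsf18, a co-stimulatory receptor gene at -0.52 (SE 0.20), and the higher pair was Cish and Socs2, which this list shares with the feedback list. The median change of the list was -0.03. Of 6 measured genes linked to IL-4 and STAT6, 0 passed over all genes in limma and 0 had an unadjusted p below 0.05, with a median of -0.04. Gata3, the TH2 regulator, was at 0.33 (SE 0.18), and Ccr4, a chemokine receptor whose mean lay under the background reference, at -0.76 (SE 0.45), a value that ranged from -1.42 to -0.11 with 1 array left out.

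**Figure D3:**
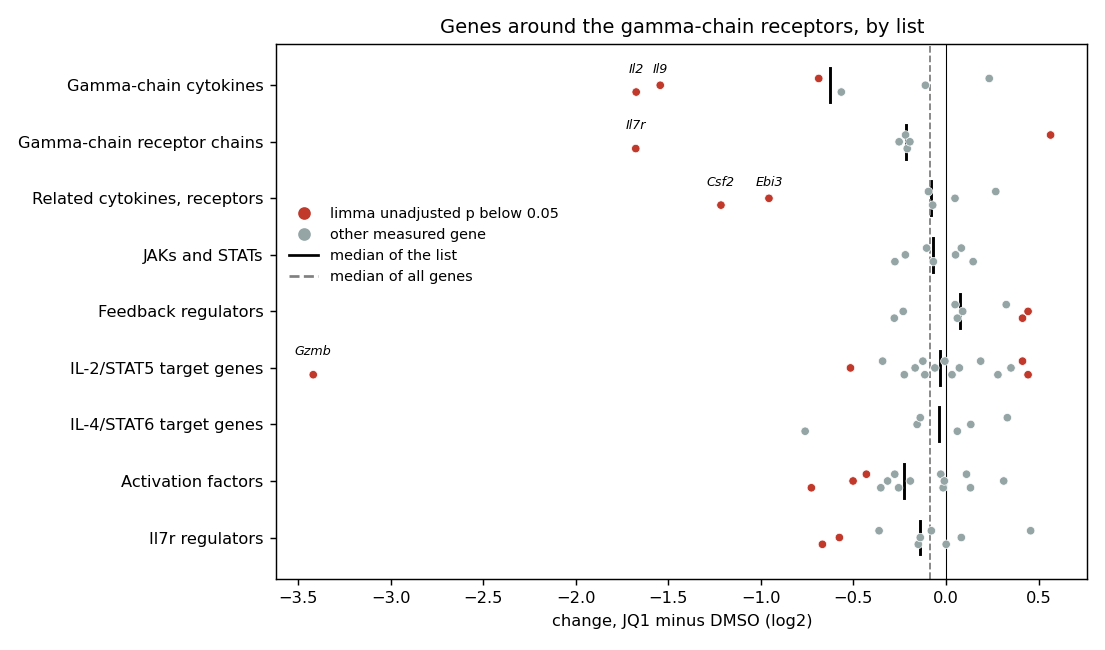
Log2 change, JQ1 minus DMSO (horizontal axis), of every measured gene in 9 lists around the gamma-chain receptors (rows). Red points have a limma unadjusted p below 0.05, black bars are list medians and the dashed line is the median of all genes, -0.09. The cytokine list has the lowest median, -0.63, and the feedback list the highest, 0.08.

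Of 14 measured transcription factor genes that act on cytokine genes after T cell activation, 0 passed over all genes in limma, and 3 were lower and 0 higher at an unadjusted p below 0.05, against 8.26% and 1.72% of all genes, with a median change of -0.22. Batf, an AP-1 family factor needed for TH17 cells and for Il21, had 9.0 and 9.36 with JQ1, against 10.01 and 9.81 with DMSO (log2 change -0.73, SE 0.19). The NF-κB subunit gene Rela was at -0.50 (SE 0.18), and the AP-1 genes Fosl2 and Jun were at -0.43 (SE 0.16) and -0.35 (SE 0.16).

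Of 9 measured factors linked to Il7r transcription, 0 passed over all genes in limma and 2 were lower at an unadjusted p below 0.05, against 8.26% of all genes. Gabpa, the ETS family factor that binds the Il7r promoter in T cells, had 8.71 and 8.80 with JQ1, against 9.40 and 9.44 with DMSO (log2 change -0.67, SE 0.14, limma adjusted p = 0.307). Runx3 was at -0.58 (SE 0.17) and Runx1 at -0.36 (SE 0.17), while Klf2, a factor of resting T cells, was at 0.46 (SE 0.20). The list's median change was -0.14. Among 6 measured relatives outside the gamma-chain family, 0 passed over all genes and 2 were lower at that unadjusted p, Csf2, the GM-CSF gene, at -1.22 (SE 0.24) and Ebi3, a subunit of IL-27 and IL-35, at -0.96 (SE 0.22), against 8.26% of all genes. The signal of Csf2 was 4.56 and 4.51 with JQ1, against 5.44 and 6.06 with DMSO, so that of its 4 arrays only DMSO replicate 2 exceeded the background reference, and the JQ1 mean of Ebi3, 5.54, was under it too. Tslp, whose protein signals through the IL-7 receptor alpha chain, was at 0.27 (SE 0.19) and Il13ra1, a partner of the IL-4 receptor alpha chain, at -0.09 (SE 0.17), both under the background reference. The sign of Il13ra1 turned to 0.02 after centring, and it ranged from -0.24 to 0.05 with 1 array left out.

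For each strongly lower member, the genes with the nearest 4 array values, centred on their own mean, were found by Euclidean distance. Genes with predicted-gene symbols were left out of this search, which is a description over 4 arrays. For Il2 the nearest were Il1r1 (distance 0.12), the natural killer marker Klrd1 (0.17) and Ly6e (0.21), with changes of -1.78, -1.73 and -1.53. Among the members, Il7r was the sixth nearest to Il2 (rank 6, distance 0.28) and Il9 was at rank 15 (0.42). For Il9 the nearest were Rida (0.087), Cyp11a1 (0.12) and Il17a (0.23), with changes of -1.57, -1.64 and -1.37. For Il7r they were Klrd1 (0.15), Olfr654 (0.28), whose mean lay under the background reference, and Il2 (0.28). Klrd1 was under that reference on both JQ1 arrays, at 4.70 and 5.33.

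The identity of the cells was checked on marker genes. All 7 measured T cell markers exceeded the background reference, with a summed signal of 13.10 and 13.20 (log2) in JQ1 samples and 13.38 and 13.13 in DMSO samples, and 0 of the 7 had an unadjusted limma p below 0.05. Of 6 measured TH17 markers, 5 exceeded the reference, and all 6 were lower at an unadjusted limma p below 0.05, against 8.26% of all genes. Their summed signal was 9.42 and 9.51 with JQ1, against 12.04 and 11.79 with DMSO. With DMSO that sum rests mostly on Il17f, which had 11.51 and 11.17 there. The median change of the 6 was -1.57, and the changes ran from -3.41 (Il17f) to -0.83 (Rora). Mast cells and basophils also make Il4 and Il9, and 0 of their 7 measured markers exceeded the reference in the mean over the arrays. The summed signal of those 7 was 7.19 and 7.22 with JQ1, against 7.84 and 7.49 with DMSO. At an unadjusted limma p below 0.05 the basophil protease gene Mcpt8 was lower, at -1.38 (SE 0.22), against 8.26% of all genes. The IgE receptor subunit gene Ms4a2 was higher at that p, at 0.55 (SE 0.20), against 1.72%. Mcpt8 had 4.75 and 4.49 with JQ1, against 6.23 and 5.76 with DMSO, and its DMSO mean of 5.99 exceeded the reference. Natural killer and CD8 T cell markers also mark cells that carry these receptors. In the mean over the arrays, 2 of 4 and 1 of 3 of them exceeded the reference. These were Klrd1 and Tyrobp of the natural killer list and Cd8b1 of the CD8 list, whereas Ncr1 and Cd8a did not exceed it. Cd8b1 had 5.88 and 6.56 with JQ1, against 6.86 and 6.72 with DMSO, above the reference on all 4 arrays (log2 change -0.57, SE 0.25). Cd8a exceeded the reference on both DMSO arrays, at 6.04 and 6.18, but not with JQ1, at 5.15 and 5.61. At an unadjusted limma p below 0.05, 1 marker of each list was lower, against 8.26% of all genes. These were Klrd1, a natural killer receptor subunit gene, at -1.73 (SE 0.25) and Cd8a at -0.73 (SE 0.20). Klrd1, too, was under the reference on both JQ1 arrays. The summed signals of the 2 lists were 7.28 and 7.18 with JQ1, against 7.93 and 7.99 with DMSO, for natural killer markers, and 7.14 and 7.53 with JQ1, against 7.85 and 7.80 with DMSO, for CD8 markers. B cell markers (1 of 5 above the reference in the mean over the arrays) had 7.66 and 7.58 with JQ1, against 7.84 and 7.96 with DMSO. Among them Pax5 exceeded the reference on all 4 arrays, at 5.90 and 6.09 with JQ1, against 6.26 and 6.17 with DMSO (log2 change -0.21, SE 0.15). Cd79a exceeded the reference on both DMSO arrays, at 6.07 and 5.81, but not with JQ1, at 5.60 and 5.60. Myeloid markers (1 of 5) had 7.71 and 7.55 with JQ1, against 7.75 and 7.62 with DMSO. The part of such cells in the changes of the members was not tested, and in bulk RNA fewer cells of a type and less RNA per cell cannot be told apart.

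The direction of each member held under the 3 other scalings and with any 1 array left out. After the other scalings, Il2 was between -1.60 and -1.56, Il9 between -1.43 and -1.39, Il7r between -1.63 and -1.56 and Il21 between -0.57 and -0.53. Il21r moved to between 0.68 and 0.70, and Il2ra to between -0.23 and -0.07. With 1 array left out, Il9 stayed between -1.59 and -1.50, whereas Il7r ranged from -2.0 to -1.35.

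**Figure D4:**
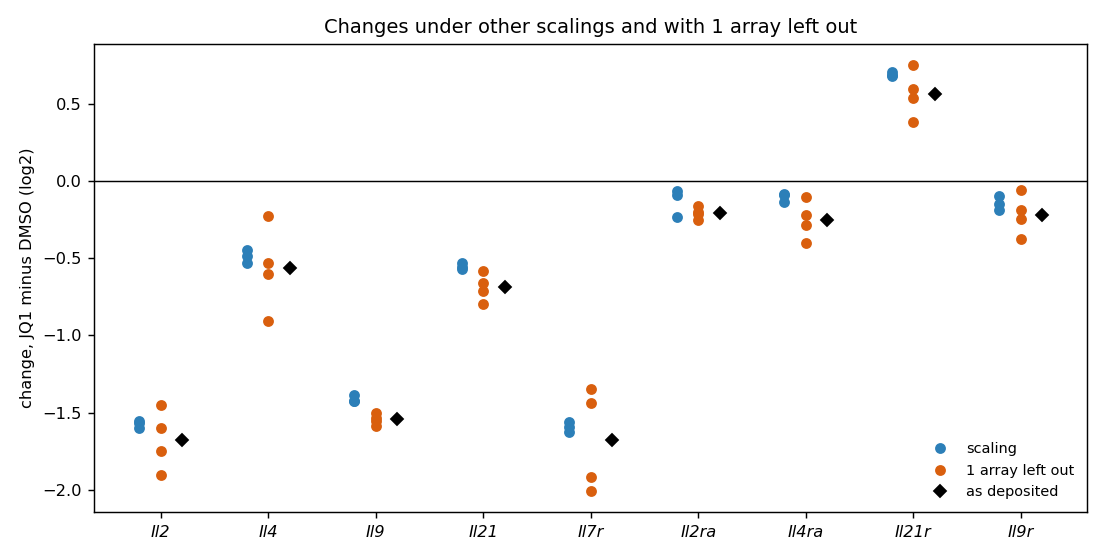
Log2 change, JQ1 minus DMSO (vertical axis), of each member under 3 other scalings (blue), with each of the 4 arrays left out in turn (orange) and for the values as deposited (black diamonds). Il9 varies least among the strongly lower genes, Il4 has the widest spread relative to its size among the cytokines, and no member crosses 0.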

How the data were processed

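In all, 4 arrays, 2 with JQ1 and 2 with DMSO, were analysed. The deposited values are log2 signals, 1 column per sample, made by the authors with RMA in Affymetrix Expression Console, per the submitters' processing notes. RMA corrects background, normalizes between arrays and summarises each row's probes, so low signals are compressed and fold changes can be understated. Versions and row definitions are not given in these sources, and the notes name hg19 for mouse samples, so no array coordinates were used.

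Of 23332 rows, the platform annotation gave 1 gene to 14996, several to 1019 and none to 7317. Entrez identifiers of 14941 rows matched the RefSeq table of GRCm38.p6, used for symbols. The row with the highest mean stood for each of 135 genes with several rows, giving 14860 genes.

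JQ1 was set against DMSO with limma 3.58.1 in R 4.3.3 (lmFit, eBayes, two-sided, 2 residual and 3.43 prior degrees of freedom, Benjamini-Hochberg over all genes, threshold 0.05), with no filter on dim genes. The script was tested on simulated data. The number of arrays limits the precision. Across all genes Pearson r was 0.982 between JQ1 arrays, 0.981 between DMSO arrays and 0.976 to 0.980 between groups. The members and gene lists were chosen with earlier results of these data known. All members are named, from each other list those past the test or else up to 4 with the smallest p, and for likeness the 3 nearest genes of members changed 2-fold or more. Marker lists were described by counts, and single markers and Tnfrsf18 were named after their values were seen. Plots came from matplotlib 3.10.9 (Python 3.11.15). Alternatives were other scalings, moderation, brightness filters, the mean of all rows, the replicate number as a block, and each array left out.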

Additional observations from a re-analysis of the deposited data

How the results depend on the processing

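Of the 13 alternatives, none changed the direction of any of the 9 members, although Il9r, dimmer than the median, was not tested under the filter at the median brightness. In the alternatives that kept all 4 arrays, 4 members were lower at an unadjusted limma p below 0.05, or 5 above the median brightness. The background of such counts moved as well. Of all genes, 1228 of 14860 were lower at that p in the fit reported, 679 of 14860 after centring and 1048 of 7430 above the median brightness. The genes called over all genes numbered 1 in the fit reported, 3 with a variance trend, 50 above the median brightness and 9 above the 25th percentile, and these 2 filters test fewer genes. Of the members, 3 were called above the median brightness (Il9, Il2 and Il7r, the last of which is above it only through its DMSO arrays) and 1 above the 25th percentile (Il9), against 0 otherwise. With the replicate number as a block, 0 genes were called over all genes in limma (1538 at an unadjusted p below 0.05), and no call of a member changed. Same-numbered arrays deviated together with a correlation of 0.097 across genes, and no label says that the numbers pair the samples. With any 1 array left out, 0 genes were called over all genes in limma (944 to 1549 at an unadjusted p below 0.05), in fits where the lone array was taken to vary like the other group. Centring moved the median change of all genes to 0.03, from -0.09 in the deposited values, and the share of lower genes among those with an unadjusted p below 0.05 to 54.3%, against 82.8%. That share was 74.2% after quantile normalization and 64.0% after cyclic loess. Signals near the background reference, those of Il9r and of Il7r and Il4 with JQ1, limit what can be read from these genes.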

Other observations

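Several members have chromosomal neighbours whose values can be set beside theirs, by the order of protein-coding genes in GRCm38.p6, chosen after their values were seen. Il2 and Il21 are adjacent on chromosome 3, and Cetn4, a centrin gene on the far side of Il21, was at -1.17 (limma unadjusted p = 0.00343). On the far side of Il2, Adad1 was at -0.18, with a mean signal of 3.36, under the background reference. Bbs12, beyond Cetn4, was at -0.09, with a mean signal of 6.68. Il4ra and Il21r are adjacent on chromosome 7 and had changes of opposite sign, -0.25 and 0.57, with Gtf3c1 next to Il21r at -0.14. Il2ra and Il15ra are adjacent on chromosome 2, at -0.21 and -0.19, and Fbh1, beyond Il15ra, was at -0.63 (limma unadjusted p = 0.00696). Next to Il9 on chromosome 13, Slc25a48 was at 0.18 and Fbxl21 at -0.17. Further out, Neurog1 was at 0.63 (limma unadjusted p = 0.0169) and Lect2 at -0.55 (limma unadjusted p = 0.0237). The mean signals of these neighbours of Il9 lay under the background reference. Next to Il4 on chromosome 11, Il13, which is expressed with it in TH2 cells, was at 0.05, and Il5, beyond Rad50, was at -0.07. Beside Il7r on chromosome 15, Capsl was at -1.46 (limma unadjusted p = 0.0160), with a mean signal of 5.72, under the background reference. None of these neighbours passed limma's test over all genes. Of all genes, 8.26% were lower and 1.72% higher at an unadjusted limma p below 0.05.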
